A study of Homo sapiens with 4 samples.

Results

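9 genes of early glucose use were followed in newly made RNA of K562, a cell line established from a chronic myeloid leukaemia. They were taken by name, as a fixed list of 9 out of 60279 human gene identifiers, and matched by the symbol of the rates table and of the GENCODE 29 annotation, which gave the same identifier for all 9. They are the glucose transporter genes SLC2A1 and SLC2A3, the hexokinase genes HK1 and HK2, the phosphofructokinase genes PFKL, PFKM and PFKP, and the pentose phosphate genes PGD and TKT. New RNA was captured by TT-seq, or transient transcriptome sequencing: cells take up 4-thiouridine, and RNA made during the label is biotinylated through its thiol group and pulled down. The groups were untreated K562 cells labelled with 1 mM 4-thiouridine for 15 min and for 5 min, with 2 libraries each, and 15 µg of Drosophila S2 cell RNA was mixed with 150 µg of total RNA of each sample before shearing and enrichment. Nothing in the labels ties the libraries of 1 label time to separate cultures. P-values therefore reflect the spread among the libraries alone, and that spread may be technical.

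Glucose enters most cells through facilitative transporters of the GLUT family and is trapped inside by phosphorylation to glucose 6-phosphate. That product either goes on through phosphofructokinase, the committed step of glycolysis, or enters the pentose phosphate pathway, which supplies NADPH and ribose 5-phosphate for nucleotide synthesis. GLUT1 is the main glucose transporter of human erythroid cells, and leukaemia cells in culture are known for high glycolytic flux.

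The 15 min libraries held 5051370 and 4726327 human reads, against 4339981 and 4695405 in the 5 min libraries, and the 9 genes together took 7296 and 7047 reads after 15 min and 7952 and 8753 after 5 min. Fly reads numbered 318710 and 308978 after 15 min and 897018 and 803914 after 5 min, so that human reads per fly read averaged 15.6 ± 0.391 after 15 min against 5.34 ± 0.709 after 5 min (SD, 2 libraries each, exact permutation p = 0.333, the smallest the 6 arrangements of 4 libraries allow). All 8 K562 markers examined (among them GATA1, KLF1, TAL1 and TFRC) passed the filter on low counts. They summed to 1856 and 1828 reads per 1000000 human reads after 15 min and to 2420 and 2587 after 5 min. Markers of T cells, B cells, monocytes, fibroblasts and epithelial cells passed in 5 of 15 cases, MS4A1 and KRT5 had 0 reads in every library, and the list summed to 77.8 and 77.9 per 1000000 human reads after 15 min and to 94.7 and 98.2 after 5 min. Genes of the mitochondrial chromosome took 6.94% and 5.93% of the human reads after 15 min and 2.07% and 2.59% after 5 min. The marker sums differed by label time without overlap, and their part in the results was not tested. The mitochondrial part also differed without overlap, and leaving those genes out gave the same share calls for the 9 genes and a 15 over 5 min ratio of human to fly reads of 2.80, against 2.92 with them.

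The promoters of 5 of the genes are shown. SLC2A1 was the only member that gained share of the labelled RNA, a call lost in 2 of 9 alternative settings. PFKL, PGD, TKT and HK2 are among the 8 members that lost share, and HK1, which fell as much as PFKL, is not shown. A link between promoter sequence and change in share was not tested. Each line gives the 250 bases before a RefSeq start site (GRCh38.p14, 5′ to 3′ on the gene's strand). Capitals mark matches, on either strand, to the E-box CACGTG, the hypoxia response core ACGTG (also held within every E-box), the GC box GGGCGG, the CCAAT box CCAAT, the antioxidant response core TGACNNNGC and the TATA box TATAAA.
SLC2A1, chr1:42958869-42959118, minus strand: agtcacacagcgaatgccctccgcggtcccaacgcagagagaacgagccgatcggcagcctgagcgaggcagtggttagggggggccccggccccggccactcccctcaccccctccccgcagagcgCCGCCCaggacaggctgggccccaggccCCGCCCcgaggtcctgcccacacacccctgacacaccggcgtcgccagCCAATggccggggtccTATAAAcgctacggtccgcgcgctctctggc
HK2, chr2:74834920-74835169, plus strand: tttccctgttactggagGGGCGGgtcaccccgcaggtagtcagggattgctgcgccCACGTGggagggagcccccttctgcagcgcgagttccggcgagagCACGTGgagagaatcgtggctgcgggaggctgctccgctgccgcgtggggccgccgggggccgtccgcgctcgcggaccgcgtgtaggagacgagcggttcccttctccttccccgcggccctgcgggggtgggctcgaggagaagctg
PFKL, chr21:44299803-44300052, plus strand: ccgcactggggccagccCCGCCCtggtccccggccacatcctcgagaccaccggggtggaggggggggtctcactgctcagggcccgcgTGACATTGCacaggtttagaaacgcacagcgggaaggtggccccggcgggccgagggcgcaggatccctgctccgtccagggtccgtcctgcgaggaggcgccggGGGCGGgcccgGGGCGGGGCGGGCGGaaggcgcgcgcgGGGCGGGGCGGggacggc
PGD, chr1:10398814-10399063, plus strand: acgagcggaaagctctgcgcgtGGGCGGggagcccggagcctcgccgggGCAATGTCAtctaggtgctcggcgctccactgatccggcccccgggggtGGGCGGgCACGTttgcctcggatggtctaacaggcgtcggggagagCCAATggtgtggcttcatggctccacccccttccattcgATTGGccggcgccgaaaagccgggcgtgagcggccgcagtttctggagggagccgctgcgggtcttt
TKT, chr3:53256023-53256272, minus strand: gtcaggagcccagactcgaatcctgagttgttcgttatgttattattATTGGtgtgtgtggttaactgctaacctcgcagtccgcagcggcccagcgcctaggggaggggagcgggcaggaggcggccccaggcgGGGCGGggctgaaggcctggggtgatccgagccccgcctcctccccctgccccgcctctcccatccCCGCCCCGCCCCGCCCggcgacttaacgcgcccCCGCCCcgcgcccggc

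SLC2A1, PFKL, PGD and TKT each have 1 start in the RefSeq table, and HK2 has 2, of which the downstream one is shown because it holds both E-boxes. The upstream HK2 window lies nearer the annotated start of the gene. It holds 0 E-boxes, 4 GC boxes, 2 CCAAT boxes and 2 hypoxia response cores. The SLC2A1 window has a TATA box 31 bases before the start, 1 CCAAT box and 2 GC boxes. PFKL has 7 GC boxes, some overlapping, and TKT has 5. PGD has 2 GC boxes, 2 CCAAT boxes, 1 hypoxia response core and 1 antioxidant response core, and PFKL also has 1 antioxidant response core. Over the 34943 windows of this length in the table, the E-box was found in 6.32%, the hypoxia response core in 18.5%, the GC box in 42.5%, the CCAAT box in 32.0%, the antioxidant response core in 10.9% and the TATA box in 10.8%. Of the 24 windows of the 8 members in the table, 4.17% held the E-box (HK2 alone), 20.8% the hypoxia response core, 54.2% the GC box, 33.3% the CCAAT box, 12.5% the antioxidant response core and 8.33% the TATA box (PFKM and SLC2A1), and windows of neighbouring starts overlap. A match of letters is a description of the window and not evidence of binding.

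The genes were first compared relative to the fly reads, which asks how much labelled RNA accumulated between 5 and 15 min per mass of total RNA. All 9 passed the filter on low counts and all 9 rose, but 98.4% of the 17322 genes tested rose too and 0.0115% fell, so the count itself is not a result about these genes. In all 9 both 15 min libraries lay above both 5 min libraries, as in 99.0% of the tested genes. The median fold of the 9 was 2.43, against 3.20 over all tested genes, and the label times differ by a factor of 3. Only SLC2A1 lay above the median of all genes, and HK1 and PFKL, at 1.84-fold each, lay near the 5th percentile of all genes. In such bulk samples, fewer cells that make a transcript and less of it per cell cannot be told apart.

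Both transporter genes rose on the fly read scale, SLC2A1 more than SLC2A3. SLC2A1 (ENSG00000117394, chromosome 1, 42925375 to 42959176, minus strand), which encodes GLUT1, had 3.44 and 3.33 reads per 1000 fly reads after 15 min, against 0.880 and 0.957 after 5 min. Its 15 min libraries stood far above the 5 min ones, and the fold was 3.68 (log2 fold change 1.88 ± 0.17 SE, adjusted p = 4.8e-27). SLC2A3 (ENSG00000059804, chromosome 12, 7919230 to 7936275, minus strand), which encodes the high-affinity transporter GLUT3, had 3.13 and 2.93 reads per 1000 fly reads after 15 min and 1.05 and 1.22 after 5 min. The groups did not overlap, and the fold was 2.67 (log2 fold change 1.42 ± 0.168 SE, adjusted p = 1.15e-16).

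The hexokinases, which phosphorylate glucose on entry, rose by unequal amounts. HK1 (ENSG00000156515, chromosome 10, 69269984 to 69401884, plus strand), the housekeeping form, had 5.43 and 5.55 reads per 1000 fly reads after 15 min and 2.65 and 3.32 after 5 min. It had the most reads of the 9 in every library, yet its fold of 1.84 was among the lowest (log2 fold change 0.88 ± 0.169 SE, adjusted p = 2.59e-07). HK2 (ENSG00000159399, chromosome 2, 74833981 to 74893359, plus strand), the form induced in many tumours, had 1.86 and 1.97 after 15 min and 0.716 and 0.827 after 5 min, a fold of 2.48 (adjusted p = 1.11e-14).

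Phosphofructokinase is a tetramer built from liver (PFKL), muscle (PFKM) and platelet (PFKP) type subunits, and all 3 genes rose. PFKL (ENSG00000141959, chromosome 21, 44300051 to 44327376, plus strand) had 0.894 and 0.945 reads per 1000 fly reads after 15 min and 0.410 and 0.588 after 5 min, a fold of 1.84 (adjusted p = 2.85e-07). The gap between its 5 min libraries was wide, and the fold was 1.56 without replicate 1 and 2.23 without replicate 2 of that group. PFKM (ENSG00000152556, chromosome 12, 48105139 to 48146404, plus strand) had 0.602 and 0.566 after 15 min and 0.248 and 0.300 after 5 min, a fold of 2.14 (adjusted p = 2.98e-09). PFKP (ENSG00000067057, chromosome 10, 3066333 to 3137712, plus strand) had 1.48 and 1.45 after 15 min and 0.547 and 0.624 after 5 min, a fold of 2.50 (adjusted p = 1.06e-14). In each of the 3 genes both 15 min libraries lay above both 5 min libraries.

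PGD (ENSG00000142657, chromosome 1, 10398592 to 10420144, plus strand) encodes 6-phosphogluconate dehydrogenase of the oxidative branch, which makes NADPH. It had 2.47 and 2.52 reads per 1000 fly reads after 15 min and 1.08 and 1.40 after 5 min, a fold of 2.02 (adjusted p = 1.85e-09). TKT (ENSG00000163931, chromosome 3, 53224707 to 53256052, minus strand) encodes transketolase, which links the non-oxidative branch back to glycolysis. It had 3.60 and 3.57 after 15 min and 1.29 and 1.65 after 5 min, a fold of 2.43 (adjusted p = 5.47e-14). Neither gene's groups overlapped. Adjusted p-values on this scale come from edgeR (quasi-likelihood) with the fly totals as library sizes and Benjamini-Hochberg adjustment over all 17322 genes. An error in the fly totals would move all genes of a library together. Where it differs between the 2 libraries of a label time, it enters the SEs. Where both libraries of a label time have it in common, these p-values do not measure it.

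**Figure D1:**
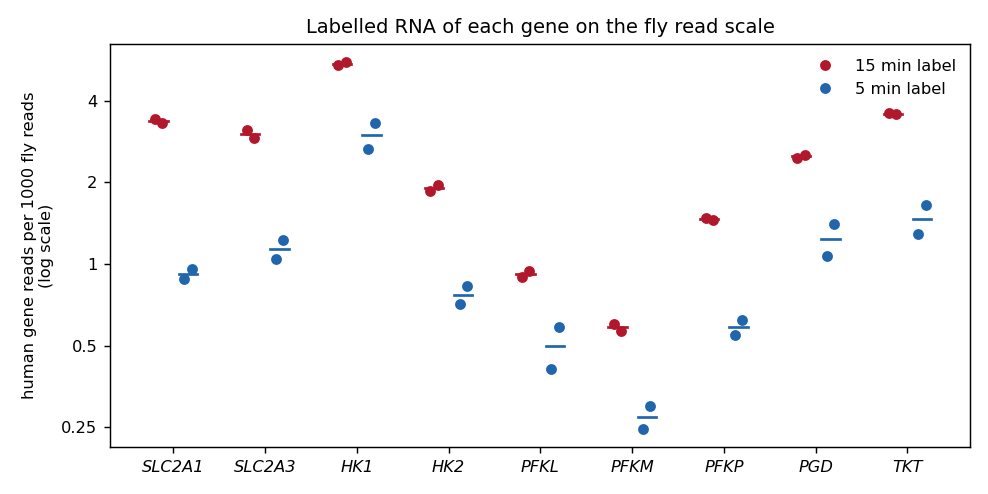
Reads of each gene per 1000 fly reads (log axis) in the 15 min (red) and 5 min (blue) libraries, with points for libraries and bars for means of 2. All 9 genes stood higher after 15 min, with the widest gap at SLC2A1 (3.68-fold) and the narrowest at HK1 and PFKL (1.84-fold each).

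Per minute of label, the gain of the later interval was smaller than that of the first in 8 of the 9 genes, as in 41.9% of all tested genes and 56.2% of those whose average log2 CPM reached 5. This is the same as a rise of under 3-fold on the fly read scale. SLC2A1 added 0.246 reads per 1000 fly reads per minute over the last 10 min, against 0.184 over the first 5 min. HK1 added 0.251 per minute over the last 10 min, against 0.596 over the first 5 min, and PFKL 0.0420 against 0.0999. PGD added 0.126 per minute over the last 10 min and 0.248 over the first 5 min. These figures are differences of group means, taken with no test, and they carry the error of the fly totals.

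The second comparison took out the rise common to all genes, by dividing by the human reads of the library with TMM factors, and asked how the share of each member in the labelled RNA moved. Together the 9 took 0.144% and 0.149% of the human reads after 15 min and 0.183% and 0.186% after 5 min, which did not overlap (ratio of means 0.794, exact two-sided permutation p = 0.333, the smallest possible). SLC2A1 gained share and the other 8 lost it. Over all genes tested 21.3% lost share and 16.8% gained it, and among the 6970 genes whose average log2 CPM reached 5, where all 9 members lie, 40.5% lost and 17.1% gained. The median log2 fold change of the 9 was -0.36, against -0.12 for genes of that level and 0.03 for all tested genes, and 7 of the 9 lay below the lower quartile of all genes (-0.28). Both 15 min libraries lay below both 5 min libraries for 8 of the 9 genes, as they did for 33.0% of all genes, and above them for SLC2A1, as for 34.6% of all genes. The split of all calls depends on the scaling: 2915 genes were higher and 3692 lower with TMM, 923 and 2370 with DESeq2 and its own size factors, and 4253 and 2792 with total counts, which moved the median of all genes by 0.10 on the log2 scale. Every direction of the 9 members was the same under these scalings.

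SLC2A1 had 211 CPM (TMM-scaled reads per 1000000) in both 15 min libraries, against 188 and 172 CPM in the 5 min libraries. The groups were close but apart, and the log2 fold change was 0.23 ± 0.0665 (SE, adjusted p = 0.00249). The call was lost with DESeq2 (log2 fold change 0.22, adjusted p = 0.0997). It was also lost when replicate 2 of the 5 min libraries was left out (0.15, adjusted p = 0.171), while the direction was the same in all 9 alternatives. SLC2A3 had 192 and 186 CPM after 15 min and 225 and 220 CPM after 5 min, a log2 fold change of -0.23 ± 0.0657 (adjusted p = 0.00164). With total counts in place of TMM factors its fall missed the threshold (-0.13, adjusted p = 0.104).

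HK1 fell most together with PFKL. HK1 had 334 and 352 CPM after 15 min and 567 and 597 CPM after 5 min, a log2 fold change of -0.76 ± 0.0607 (adjusted p = 3.02e-34). HK2 fell less, with 114 and 125 CPM after 15 min and 153 and 149 CPM after 5 min (-0.34 ± 0.0731, adjusted p = 2.26e-05). Neither gene's groups overlapped.

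PFKL had 54.9 and 60.0 CPM after 15 min and 87.9 and 106 CPM after 5 min (log2 fold change -0.76 ± 0.0898, adjusted p = 9.17e-16). PFKM had 37.0 and 35.9 CPM after 15 min and 53.0 and 54.0 CPM after 5 min (-0.55 ± 0.114, adjusted p = 1.03e-05). PFKP fell by the smallest amount of the 3, with 90.6 and 92.0 CPM after 15 min and 117 and 112 CPM after 5 min (-0.33 ± 0.0794, adjusted p = 0.000186). Among the pentose phosphate genes, PGD had 152 and 160 CPM after 15 min and 230 and 252 CPM after 5 min (-0.63 ± 0.0665, adjusted p = 8.56e-20). TKT had 221 and 226 CPM after 15 min and 277 and 297 CPM after 5 min (-0.36 ± 0.0633, adjusted p = 1.2e-07). The share tests were edgeR quasi-likelihood tests with Benjamini-Hochberg adjustment over the same 17322 genes, and the fit borrows its spread partly from all genes, so an SE can be smaller than the 2 libraries alone would give.

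**Figure D2:**
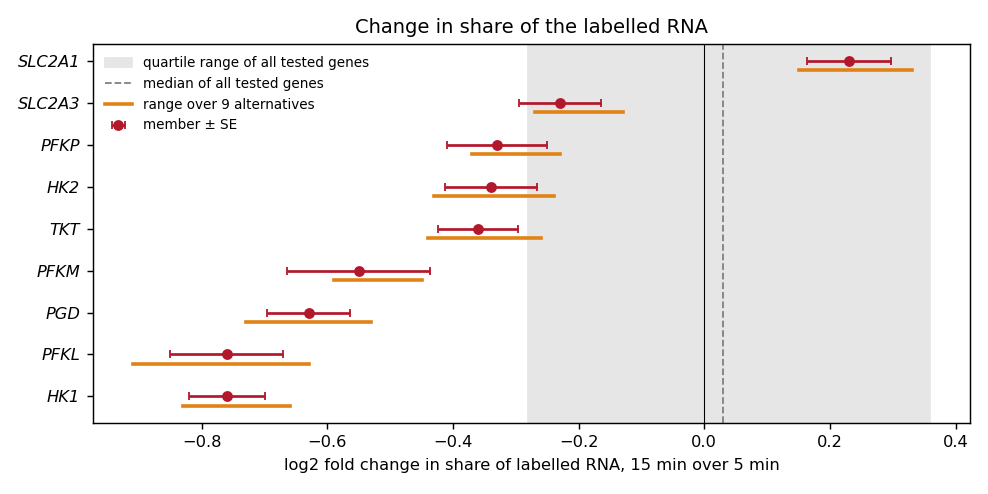
Log2 fold change in share of the labelled RNA (15 min over 5 min) for each gene, with SE bars (red) and the range over 9 alternative settings (orange). Grey marks the quartile range of all tested genes (-0.28 to 0.36) and the dashed line their median. SLC2A1 (0.23) lies right of 0 and the other 8 lie left of it, down to -0.76 for HK1 and PFKL.

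In raw reads, with no scaling at all, 7 of the 9 genes had fewer reads in both 15 min libraries than in either 5 min library. So did 17.6% of all tested genes, and 28.3% of those whose average log2 CPM reached 5. SLC2A1 had more, as did 50.8% of all tested genes (1095 and 1028 after 15 min, against 789 and 769 after 5 min). SLC2A3 overlapped, with 998 and 904 reads after 15 min and 940 and 984 after 5 min. Counts ran from 175 reads (PFKM) to 2666 (HK1), where counting alone gives an error of 7.56% and 1.94%. That error covers sampling of reads only.

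Ratios between genes within a library do not depend on how libraries are scaled. They were taken within gene families and for PGD and TKT, a pair of the same pathway and not of a gene family. SLC2A3 had 0.911 and 0.879 reads per SLC2A1 read after 15 min and 1.19 and 1.28 after 5 min, so the ratio of reads was under 1 after 15 min and over 1 after 5 min. The ratio after 15 min was 0.725 of that after 5 min. HK2 had 0.342 and 0.354 reads per HK1 read after 15 min and 0.270 and 0.249 after 5 min, a ratio 1.34-fold higher after 15 min. PFKP had 1.65 and 1.53 reads per PFKL read after 15 min and 1.33 and 1.06 after 5 min, also 1.34-fold higher, whereas PFKM had 0.674 and 0.599 reads per PFKL read after 15 min and 0.603 and 0.510 after 5 min, which overlapped. TKT had 1.45 and 1.42 reads per PGD read after 15 min and 1.20 and 1.18 after 5 min, 1.21-fold higher. Of the 5 ratios, 4 were separated by label time, each with an exact two-sided permutation p = 0.333, the smallest this design allows, and PFKM to PFKL gave p = 0.667. None could therefore pass a threshold of 0.05, and adjustment over the 5 would not lower any of them. How often ratios of other gene pairs separate was not counted. In share, single genes were separated in 33.0% (lower after 15 min) and 34.6% (higher) of all tested genes. The PFKM and PFKP ratios have the PFKL reads in common.

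Counted per kilobase of annotated exon, SLC2A1 made up 59.3% ± 0.611 of the transporter pair after 15 min and 51.4% ± 1.26 after 5 min (SD over 2 libraries). HK1 made up 73.5% ± 0.473 of the hexokinase pair after 15 min and 78.8% ± 0.951 after 5 min. PFKP was the main phosphofructokinase gene, with 62.3% ± 0.351 after 15 min and 56.7% ± 2.79 after 5 min. PFKL made up 21.2% ± 0.964 after 15 min and 25.9% ± 2.91 after 5 min, and PFKM 16.5% ± 0.613 after 15 min and 17.4% ± 0.119 after 5 min. PGD made up 69.1% ± 0.379 of the pentose phosphate pair after 15 min and 72.9% ± 0.303 after 5 min.

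**Figure D3:**
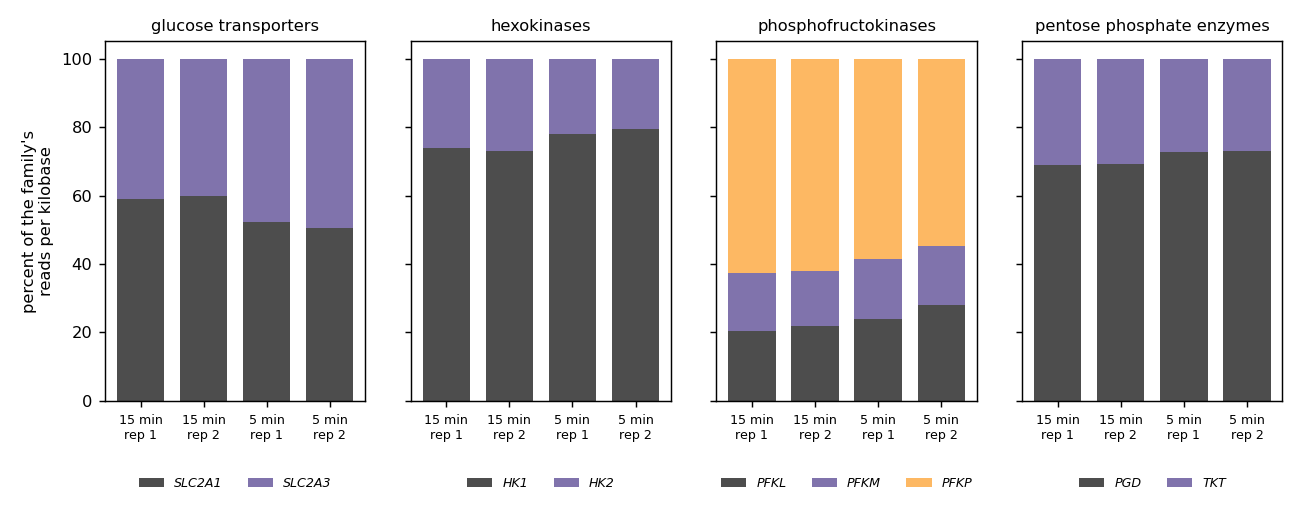
Make-up of each gene family, and of the pentose phosphate pair, per library, as percent of the summed reads per kilobase of exon, for the 15 min libraries (left) and the 5 min libraries (right). The SLC2A1 part is larger after 15 min (59.3% against 51.4%) and the HK1 part smaller (73.5% against 78.8%). For these genes the libraries of a label time lie close to each other. The 5 min libraries lie further apart for PFKL (23.8% and 27.9%) and PFKP (58.7% and 54.7%).

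Levels of the 9 genes were compared per length of annotated exon. The sources used here do not state whether reads were counted over exons or over whole genes. If whole genes were counted, these levels, their order and the percentages within a family or pair would differ. After 15 min HK1 (56.0 ± 2.27 reads per kilobase of exon per 1000000 human reads, RPKM, SD, n = 2) and PGD (54.0 ± 2.00) led and overlapped. SLC2A1 (46.0 ± 0.110 RPKM), SLC2A3 (31.6 ± 0.723) and TKT (24.2 ± 0.468) followed, each apart from its neighbour. HK2 (20.3 ± 1.31) and PFKP (19.4 ± 0.255) overlapped, and PFKL (6.62 ± 0.425) and PFKM (5.13 ± 0.0950) were lowest. After 5 min the order was the same, but HK1 (88.6 ± 2.31 RPKM) stood apart from PGD (77.9 ± 4.22), and SLC2A1 (36.6 ± 2.7) overlapped SLC2A3 (34.6 ± 0.806). Among tested genes with an annotated length, the level after 15 min placed HK1 at percentile 96.4 and PFKM at percentile 34.3. The order of the lower genes rests on the length used. With the longest transcript as length, PFKP (33.9 RPKM after 15 min) stood above TKT (31.6) and HK2 (21.3), and PFKM (10.5) above PFKL (9.84), and after 5 min SLC2A3 (48.3 RPKM) stood above SLC2A1 (47.1), with overlap. The percentages within a family or pair rest on the same lengths.

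The authors' deposited table of synthesis rates, for which the sources used here state no unit, method or libraries, holds 1 value for each of the 9 genes among 11777 genes. In the authors' deposited table SLC2A1 had the highest rate of the 9 (0.0669), close to SLC2A3 (0.0654) and PGD (0.0604), at percentiles 93.9, 93.7 and 92.7 of all rates. The authors' deposited table gave HK1 0.0512 and TKT 0.0443, at percentiles 90.5 and 88.1, and HK2 0.0263 and PFKP 0.0258, at percentiles 75.7 and 75.2. It was lowest for PFKL (0.0151, percentile 58.6) and PFKM (0.00681, percentile 36.5) in the authors' deposited table. Across the 9 genes the rate and the level per length after 15 min had a Pearson r of 0.85 and a Spearman rho of 0.85, and the rate and the level after 5 min a Pearson r of 0.66 and a Spearman rho of 0.85, as a description only, since rates and counts belong to the same series. Over 10737 tested genes with a rate, Spearman rho was 0.89 with the level after 15 min and 0.89 with that after 5 min. HK1 led in level and stood 4th in rate. No replicate error is given for the rates.

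**Figure D4:**
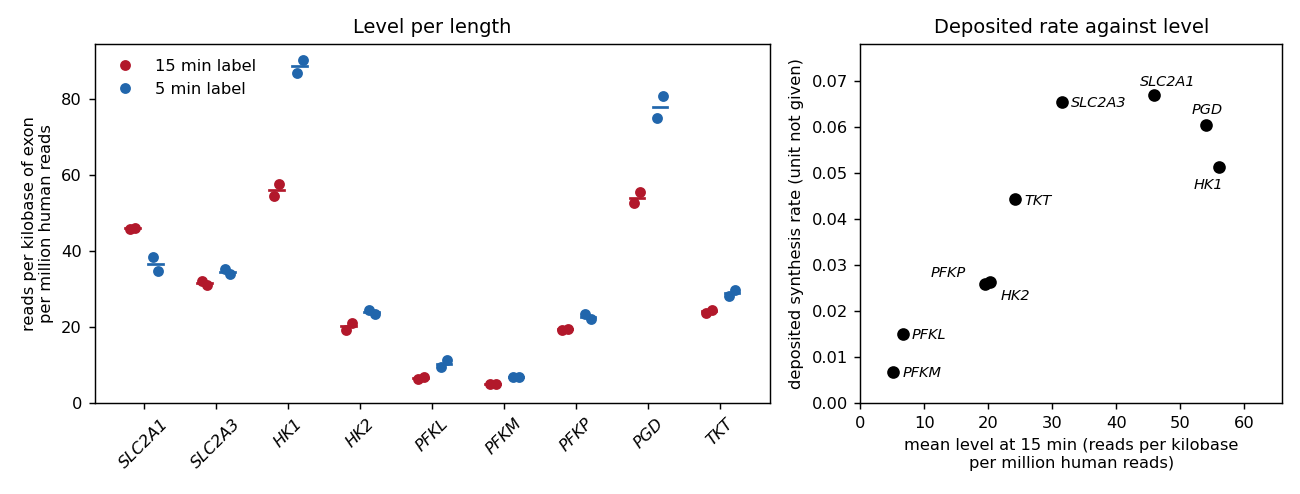
Left, level per length (RPKM) of each gene in the 15 min (red) and 5 min (blue) libraries, with bars for means of 2. Right, the deposited synthesis rate (unit not given) against the mean level after 15 min. HK1 and PGD have the highest levels, while SLC2A1 has the highest rate (0.0669), and PFKM is lowest in both.

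The genes differ in size and structure. The annotated span ran from 17.0 kb for SLC2A3 to 131.9 kb for HK1, and annotated exons covered 4.77% of the HK1 span and 36.1% of the SLC2A3 span. Across the 9 genes the change in share had a Spearman rho of -0.10 with gene span and of 0.14 with the exon share of the span, as a description. SLC2A3 shared 16.1% of its 50-base words with transcripts of other genes, mostly with SLC2A14 (15.3%), a close paralog that had 33 and 28 reads after 15 min and 20 and 27 after 5 min. The SLC2A3 count is therefore uncertain, but a share of words is not a share of reads, so the size of that error is not known. HK2 shared 8.16% of its words with the pseudogene HK2P1, which had 0 reads in both 15 min libraries and 0 and 2 in the 5 min libraries, and PGD shared 4.16% with the pseudogene PGDP1, which had at most 1 read in any library.

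Some members overlap other genes, and no strand setting for the counting is stated in the sources used here. PFKM overlaps SENP1, a SUMO protease gene on the other strand, which had 418 and 358 reads after 15 min and 369 and 376 after 5 min, more than PFKM itself (192 and 175 after 15 min, 222 and 241 after 5 min). Its share change of -0.16 did not pass (adjusted p = 0.137, edgeR). SLC2A1 has the noncoding SLC2A1-AS1 on the other strand, starting 127 bases from its own start, with 34 and 43 reads after 15 min and 36 and 23 after 5 min (share log2 fold change 0.17, adjusted p = 0.663). A noncoding gene on the other strand of HK2, AC019069.1, starts 6 bases from the HK2 start, with 24 and 31 reads after 15 min and 33 and 41 after 5 min (share log2 fold change -0.64, adjusted p = 0.0487).

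The other genes of glucose transport, phosphorylation and the pentose phosphate pathway moved in both directions. Of 40 such genes 24 were tested, and the other 16 had at most 9 reads in any library, among them the hexokinase gene HK3. All 24 rose on the fly read scale, as 98.4% of all genes did. In share 5 rose, 9 fell and 10 did not pass (edgeR), with a median log2 fold change of 0.04, against 0.03 for all tested genes, of which 16.8% rose and 21.3% fell. The count that rose was 2 with DESeq2, 3 without replicate 1 or replicate 2 of the 15 min libraries or without replicate 1 of the 5 min libraries, 4 without replicate 2 of the 5 min libraries or without a filter, 6 with the replicate block and 7 with total counts. By step, 4 of 9 genes of transport and its regulators rose and 1 fell, and 1 of 4 genes of the fructose phosphate steps rose and 3 fell. TXNIP, which encodes an inhibitor of glucose uptake, had the most reads of the list, with 2024 ± 58.7 CPM after 15 min against 1638 ± 91.4 CPM after 5 min (SD of 2 libraries), and rose by 0.31 on the log2 scale (adjusted p = 1.06e-05). PFKFB3, which makes the activator of phosphofructokinase, fructose 2,6-bisphosphate, rose by 0.46 (adjusted p = 1.59e-05). ADPGK, whose product phosphorylates glucose with ADP, had a log2 fold change of 0.18 that did not pass (adjusted p = 0.0734).

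Among the steps next to the members, GPI, the isomerase between hexokinase and phosphofructokinase, had 155 ± 3.06 CPM after 15 min and 333 ± 21.6 CPM after 5 min, a log2 fold change of -1.10 ± 0.065 (adjusted p = 1.31e-61). TALDO1, the transaldolase gene of the non-oxidative branch, fell by 0.89 (adjusted p = 2.13e-32). Of the 10 tested pentose phosphate genes outside the members, 5 fell and 5 did not pass, beside 21.3% lower among all tested genes and 40.5% among those whose average log2 CPM reached 5. Of the 11 lower glycolysis genes, aldolase to lactate dehydrogenase, 10 fell in share, with a median log2 fold change of -0.96 over the 11 and a median fold of 1.61 on the fly read scale, beside the same 21.3% and 40.5% lower. The 9 members had 0.486 and 0.476 reads per lower glycolysis read after 15 min and 0.351 and 0.342 after 5 min, apart by label time (exact two-sided permutation p = 0.333, the smallest possible here).

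**Figure D5:**
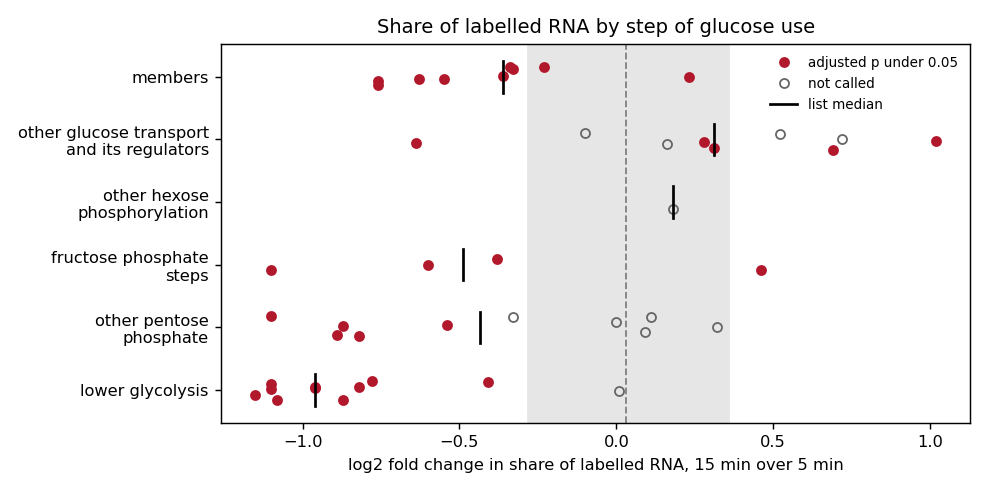
Log2 fold change in share (15 min over 5 min) of each tested gene, by step, with filled points for an adjusted p under 0.05, bars for list medians, grey for the quartile range of all tested genes and a dashed line for their median. The 9 members have a median of -0.36, between all tested genes (0.03) and lower glycolysis (-0.96).

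Among 6961 other genes at or above the same average level, the 5 whose profile over the 4 libraries on the fly read scale was closest to the mean profile of the 9 were WDHD1, AGO3, SPG11, H3F3B and CLCN3. Their Euclidean distances ran from 0.0116 to 0.0182 on the log2 scale, closer than any member itself, of which TKT (0.0701) was nearest and SLC2A1 (0.655) farthest. With 4 libraries in 2 groups, many genes share such a profile.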

How the data were processed

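RNA of 4 TT-seq libraries was measured, 2 per label time. The submitters' processing notes name STAR 2.7, Subread 2.0.1 (featureCounts), bcl2fastq 2.17.1.14 and edgeR without roles, and the builds hg38 and dm6. The deposited values are raw, unnormalized read counts per gene, 1 table for human and 1 for fly genes. The authors also deposited a synthesis rate per gene, used as a score because its scale is not given. GENCODE 29, of the same human build, gave symbols and lengths for 56590 identifiers. Promoter sequences are from RefSeq.

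The members and gene lists were chosen with earlier results of these data known. All genes were fitted with edgeR 4.0.16 (filterByExpr with a minimum count of 10, robust quasi-likelihood fit, label time as the only term, Benjamini-Hochberg at 0.05), with TMM factors for share and fly totals as library sizes for accumulation. SEs come from the F statistic. The code was tested on simulated data. Libraries of a label time were counted separately, since they differed beyond counting noise (chi-square over degrees of freedom 1.78 for 15 min and 1.62 for 5 min). Named genes were the 9 members, the 5 tested genes of the wider list with the highest mean CPM, its 2 smallest p in each direction, and the 5 nearest profiles, and 1 gene this rule names is not reported here. SLC2A14, the other sequence copies, the overlapping genes and HK3 are named outside that rule, after their values were seen. Alternatives were DESeq2 1.42.0, other scalings, no filter, a replicate block and each library left out.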

Additional observations from a re-analysis of the deposited data

How the results depend on the processing

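On the fly read scale all 9 members rose in each of the 9 alternatives (DESeq2, TMM or median-ratio scaling of the fly counts, no filter, the replicate block and each library left out), with log2 fold changes from 0.64 for PFKL to 1.94 for SLC2A1. In share the directions of all 9 were the same in every alternative, and 3 calls were lost: that of SLC2A3 with total counts (-0.13), and those of SLC2A1 with DESeq2 (0.22) or after leaving out the 5 min replicate 2 (0.15). The cause was not tested. The number of members that gained share was thus 0 with DESeq2, and 0 to 1 over the fits that leave out a library. DESeq2 called 923 genes higher and 2370 lower in share over all genes, 2 of the wider list higher, and 0 genes lower on the fly read scale. Leaving out a library, with the lone sample of its group assumed to vary like the other group, gave 1729 to 2149 genes higher in share (1729 without 5 min replicate 2 and 1795 without 15 min replicate 1), 3 to 4 of the wider list higher, and 0 to 1 genes lower on the fly read scale. The 15 over 5 min ratio of human to fly reads was 2.67 to 3.22 and that of the summed share of the members 0.782 to 0.807 when a library was left out.

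Replicate numbers are shared across label times, but the labels tie them to no batch or culture, and the deviations of same-numbered libraries had a correlation of 0.05 over 17322 genes and of 0.12 over the 6970 whose average log2 CPM reached 5. With 2 pairs this was not taken as pairing. With the replicate block, 1 member was higher and 8 were lower in share, and 3080 genes were higher and 3878 lower over all genes. The block changed no call of a member on either scale. With 2 libraries a group, exact tests of single values cannot go below p = 0.333, and lengths taken from the longest transcript move levels per length.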
